A study of Homo sapiens with 15 samples.

Results

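The H/ACA box snoRNAs, the scaRNAs and the spliceosomal RNAs are short nuclear RNAs that work inside protein complexes. H/ACA snoRNAs pair with ribosomal RNA in the nucleolus and direct dyskerin to the uridines that become pseudouridine. The scaRNAs do the same kind of work in Cajal bodies, where they guide modification of the spliceosomal RNAs. Spliceosomal RNAs (the U snRNAs) form the core of the splicing machinery, with U2 pairing to the branch site, U4 holding U6 until activation and U5 aligning the exons, while U11, U12, U4atac and U6atac serve the rarer minor introns. Most human H/ACA snoRNAs and scaRNAs are cut out of the introns of host genes, whereas the U snRNAs have promoters of their own.

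The RNAs were taken as every gene whose symbol, in the annotation of the array, began with SNORA or SCARNA and a number or with RNU and a number. Only probe clusters with 1 gene symbol were used, and the cluster with the highest mean stood for a gene. This gave 92 genes of 18417 on the array, from 110 clusters: 61 SNORA genes, 16 SCARNA genes and 15 RNU genes. A level filter kept 82 of the 92 (57 SNORA, 14 SCARNA and 11 RNU genes) among 16872 genes tested. All 92 gene IDs were found in RefSeq, where 83 of the genes lie within another gene and 11 are longer than 200 bases.

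MH7A, an established line of human synovial cells, was studied in 3 separate experiments (ex 1 to ex 3), each with 5 arrays, 1 per condition. GlcN + alloxan cells first had alloxan at 5 mM (30 min), then alloxan at 2 mM with glucosamine (GlcN) at 5 mM over 2.5 h, and then 13 h of IL-1β at 15 pg/ml. GlcN cells had 5 mM GlcN for 2.5 h and then IL-1β, alloxan cells had alloxan and IL-1β without GlcN, IL-1β alone cells had only the cytokine, and resting cells had none of these agents. Alloxan was used as an inhibitor of O-GlcNAc transferase, the enzyme that attaches the sugar made from GlcN to proteins, and all 5 conditions share 1 cell line, so that the spread is between experiments on that line and not between donors. GlcN, alloxan and GlcN + alloxan cells were all compared with the same 3 IL-1β alone arrays, so those comparisons are not independent of one another.

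Values are log2 signals of the deposited table. The 5 arrays of an experiment had medians within 6.18 to 6.21, 7.14 to 7.19 and 7.49 to 7.54 in ex 1, ex 2 and ex 3, so levels were compared within an experiment and a difference is given for each experiment before its mean. No 2 arrays were duplicates (the highest correlation was 0.996). Of 11 markers of synovial fibroblasts, 7 lay above the median of the array on all 15 arrays (VIM, COL1A1, COL1A2, COL3A1, COL6A1, THY1 and FN1), and PDPN, CDH11, FAP and PRG4 did not, while of 12 markers of other cell types only CD68 did. Each comparison was fitted with limma across all 16872 genes, once without a term for the experiment and once with the experiment as a block, and a call is a Benjamini-Hochberg adjusted p under 0.05. Without the block no RNA of these classes was called in any of the 6 comparisons. The smallest adjusted p of limma was 1 in each, so every call below is a call of the blocked fit. Without the block the offset between experiments is part of the spread, and the SE of a difference was 0.596 for every gene. That fit could call only very large differences, so its counts of 0 do not show that an RNA is unchanged.

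The 3 scaRNAs and the 5 H/ACA snoRNAs with the brightest signals set its scale. SCARNA12, SCARNA7 and SCARNA17 had mean levels of 11.28, 10.37 and 9.74, and SNORA71D, SNORA71C, SNORA68, SNORA10 and SNORA57 had mean levels of 11.96, 10.29, 10.13, 9.58 and 9.56. Probes differ in brightness, so these are signals and not an order of RNA abundance. Among the spliceosomal RNAs RNU2-1 (U2) had a mean level of 12.08, and RNU5E-1, RNU4-1, RNU4-2, RNU4ATAC, RNU11, RNU12 and RNU6ATAC had mean levels of 9.63, 7.55, 5.12, 8.21, 6.95, 6.71 and 6.43. RNU5A-1, RNU5B-1, RNU5D-1 and RNU5F-1, other copies of U5, lay below the filter with means of 4.39, 4.41, 2.57 and 2.14. Copies of 1 U snRNA are nearly identical in sequence, and how the probes divide them was not resolved here.

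Windows of 3 host genes are shown by the bases around their start, because each holds RNAs on which the results below turn. The windows run from 60 bases before the annotated start through the first 4 transcribed bases, which are in capitals (RefSeq, GRCh38.p14). RPL27A, a ribosomal protein gene (chr11:8682732-8682795, plus strand), contains SNORA3A and SNORA3B. RPSA, another ribosomal protein gene (chr3:39406660-39406723, plus strand), contains SNORA6 and SNORA62, and TOMM20, which encodes a mitochondrial import receptor (chr1:235128834-235128897, minus strand), contains SNORA14B.
RPL27A: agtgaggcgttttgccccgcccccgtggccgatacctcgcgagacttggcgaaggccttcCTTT
RPSA: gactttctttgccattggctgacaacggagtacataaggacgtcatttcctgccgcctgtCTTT
TOMM20: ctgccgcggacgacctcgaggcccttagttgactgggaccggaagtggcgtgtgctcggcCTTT
All 3 windows end in CTTT, a likeness seen after the windows were chosen, and the pyrimidine-rich kind of start is known from genes of the translation machinery. CTTT was searched on the transcribed strand at the start alone. It was found in 5 of the 97 windows of host genes, some of which have several (5.15%), and in 321 of the 35116 windows of the table (0.914%). The 5 include the 3 windows from which CTTT was read, the others being of CSKMT and PHB2. The shares are therefore a description and not a test.

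GlcN cells were compared with IL-1β alone cells to see which RNAs change when GlcN is added before the cytokine. Most of these RNAs were lower in GlcN cells, and the shift was seen in ex 1 and ex 2 but not in ex 3. The median difference over the 82 RNAs was −0.21 on the log2 scale, with 72 below 0 and 10 above, against a median of 0.01 over all genes tested. Over all 92 RNAs it was −0.21 too, with 81 below 0. By experiment the median was −0.17, −0.39 and 0.00, and 74.4%, 80.5% and 39.0% of the RNAs were below 0, beside 41.5%, 35.9% and 44.1% of all genes. The GlcN array alone held the lowest of the 5 levels for 61.0% of the RNAs in ex 1, 61.0% in ex 2 and 19.5% in ex 3 (23.9%, 17.6% and 21.4% of all genes). By class the median was −0.22 for the 57 SNORA genes, −0.15 for the 14 SCARNA genes, −0.57 for the 4 major and −0.21 for the 4 minor U snRNAs. It was 0.00 for the other 3 RNU genes (RNU105B, RNU105C and RNU6-501P), of which 2 were above 0. It was −0.42 for 81 C/D box snoRNAs, the other large class of short nucleolar RNAs, of which limma with the block called 31 lower and 0 higher. Of 10 tested markers of synovial fibroblasts 5 were called lower in the same comparison, with a median of −0.34, and of 10 tested markers of other cell types 0 were called. The part of any change in cell state in the shift was not tested. All cells are of 1 line, and bulk RNA does not show whether a fall was in some of the cells or in all.

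**Figure D1:**
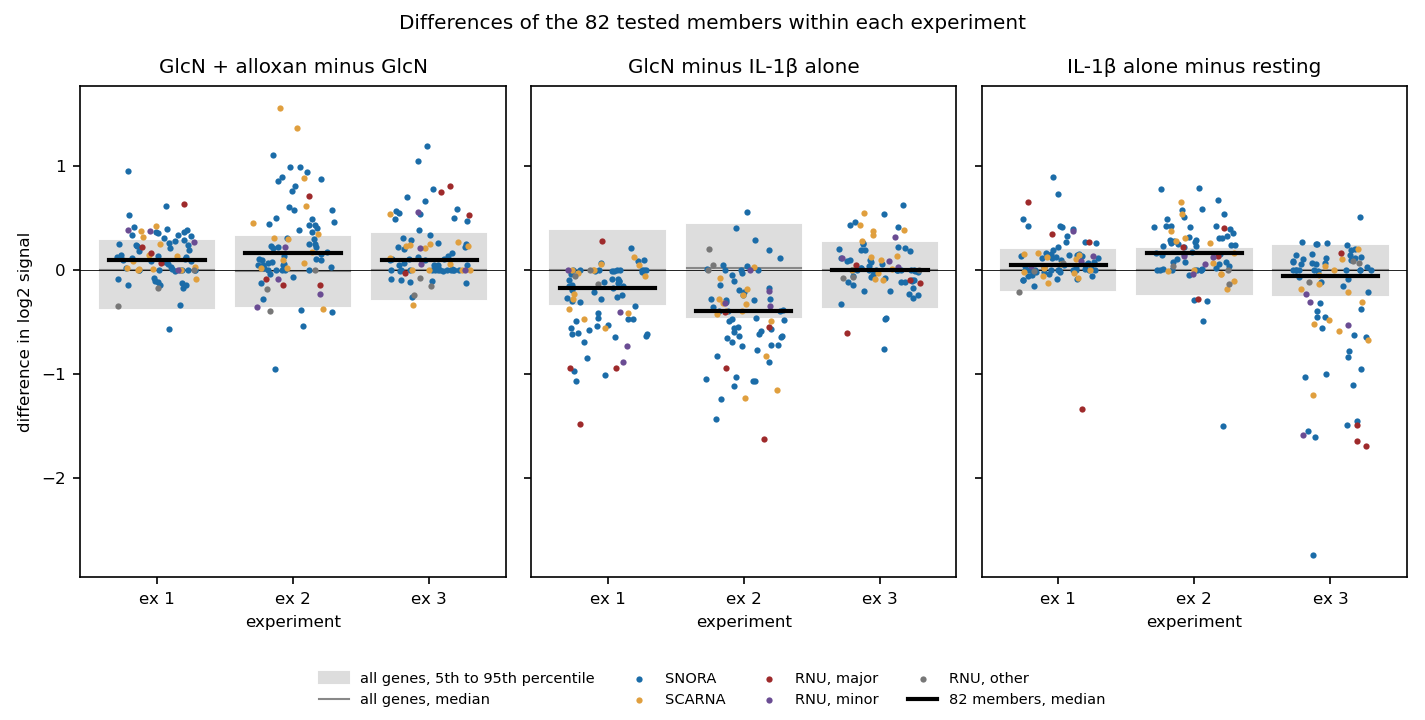
Difference in log2 signal (vertical axis) of each of the 82 tested RNAs, a point per RNA coloured by class, in ex 1, ex 2 and ex 3 for GlcN + alloxan minus GlcN, GlcN minus IL-1β alone, and IL-1β alone minus resting; the grey band holds the middle of all genes, without the outermost percentiles at either end, and the black bar the median of the 82 RNAs. The GlcN points lie below 0 in ex 1 and ex 2 (medians −0.17 and −0.39) and around 0 in ex 3, and a tail of low points marks ex 3 for IL-1β alone minus resting.

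With the block 8 RNAs were called lower and 0 higher in GlcN cells by limma. The 8 are 9.76% of the 82, read against 6.62% of all genes called lower, with 5.29% called higher, and 0.0237% of all genes called without the block. RNU2-1, the U2 snRNA, had levels of 11.06, 12.25 and 11.89 in GlcN cells, against 12, 12.8 and 12.5 in IL-1β alone cells. It was lower in all 3 experiments, by −0.94, −0.55 and −0.61, a mean of −0.70 ± 0.21 (SD, n = 3) or 1.63-fold, with an adjusted p of 0.00104. The array carries RNU2-1 in 11 clusters with mean levels of up to 12.08, and all 11 were lower in GlcN cells, by −0.74 to −0.70, though near-identical clusters are not separate measurements.

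Of the calls, 7 were H/ACA snoRNAs. SNORA21 had levels of 7.25, 7.53 and 7.62 in GlcN cells, against 7.74, 8.25 and 8.08 in IL-1β alone cells, a mean difference of −0.56 ± 0.14 (limma with the block, adjusted p = 0.00096). SNORA74A, also known as U19, had levels of 6.70, 7.25 and 7.66 in GlcN cells, against 7.32, 7.84 and 7.99 in IL-1β alone cells, a mean difference of −0.51 ± 0.16 (limma, adjusted p = 0.00225). Both were below IL-1β alone within every experiment, although the levels of the groups overlap across experiments, whose overall signal differs. Both RNAs of RPSA fell: SNORA6 differed by −0.35, −0.73 and −0.21 (limma, adjusted p = 0.00759) and SNORA62, also known as E2, by −0.46, −1.12 and −0.10 (limma, adjusted p = 0.0419). SNORA65 differed by −0.18, −0.48 and −0.17 (limma, adjusted p = 0.0188), SNORA20 by −0.09, −1.05 and −0.76 (limma, adjusted p = 0.0218), and SNORA67, picked out after its values were seen, by −0.26, −1.03 and −0.27 (limma, adjusted p = 0.0400). In 6 of these 8 RNAs, SNORA74A and RNU2-1 being the exceptions, the ex 2 difference was the largest of the 3. No RNA was called higher, and of those above 0 only SCARNA11 was higher in all 3 experiments, by 0.06, 0.03 and 0.14 (limma, adjusted p = 0.366). In all 3 experiments 26.8% of the 82 RNAs were lower and 1.22% higher, beside 16.3% and 15.0% of all genes.

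Leaving out single arrays changed the number of calls. RNU2-1, SNORA21, SNORA74A and SNORA6 were called with the block whichever of the 15 arrays was left out, whereas SNORA65 was called in 13, SNORA20 in 12, and SNORA62 and SNORA67 in only 5 of the 15 fits. Leaving out either the IL-1β alone or the GlcN array of ex 2 left 4 calls, and leaving out the IL-1β alone array of ex 3 gave 17. When the blocked fit used only the GlcN and IL-1β alone arrays, 0 of these RNAs and 1 gene of all tested were called, so the calls rest on a spread estimated over all 5 conditions.

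The remaining spliceosomal RNAs had differences that depended on the experiment. RNU5E-1, a U5 copy, had levels of 8.64, 9.06 and 8.80 in GlcN cells, against 10.12, 10.68 and 8.90 in IL-1β alone cells. The first 2 experiments thus differed by −1.48 and −1.62 and the third by −0.10, and the mean of −1.07 ± 0.84 missed the threshold (limma with the block, adjusted p = 0.0616). RNU4-1 differed by −0.95, −0.40 and 0.05, RNU4ATAC, whose defects cause a microcephalic dwarfism, by −0.89, −0.35 and 0.03, and RNU11 by −0.73, −0.32 and 0.08. These 3 RNAs share the order of the experiments, low in ex 1, less so in ex 2 and near 0 in ex 3, and none was called (limma, adjusted p of 0.551, 0.501 and 0.254). RNU12 had differences of −0.40, 0.00 and 0.11, RNU6ATAC of 0.00, −0.21 and 0.31, and RNU4-2 of 0.28, −0.94 and −0.13. SNORA22 had levels of 6.55, 9.40 and 7.36 in GlcN cells, against 7.62, 9.39 and 6.94 in IL-1β alone cells, differences of −1.06, 0.01 and 0.43 that point both ways. RNU105B and RNU105C, which RefSeq lists as snoRNAs despite their names, differed by 0.00 and 0.02 on average.

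**Figure D2:**
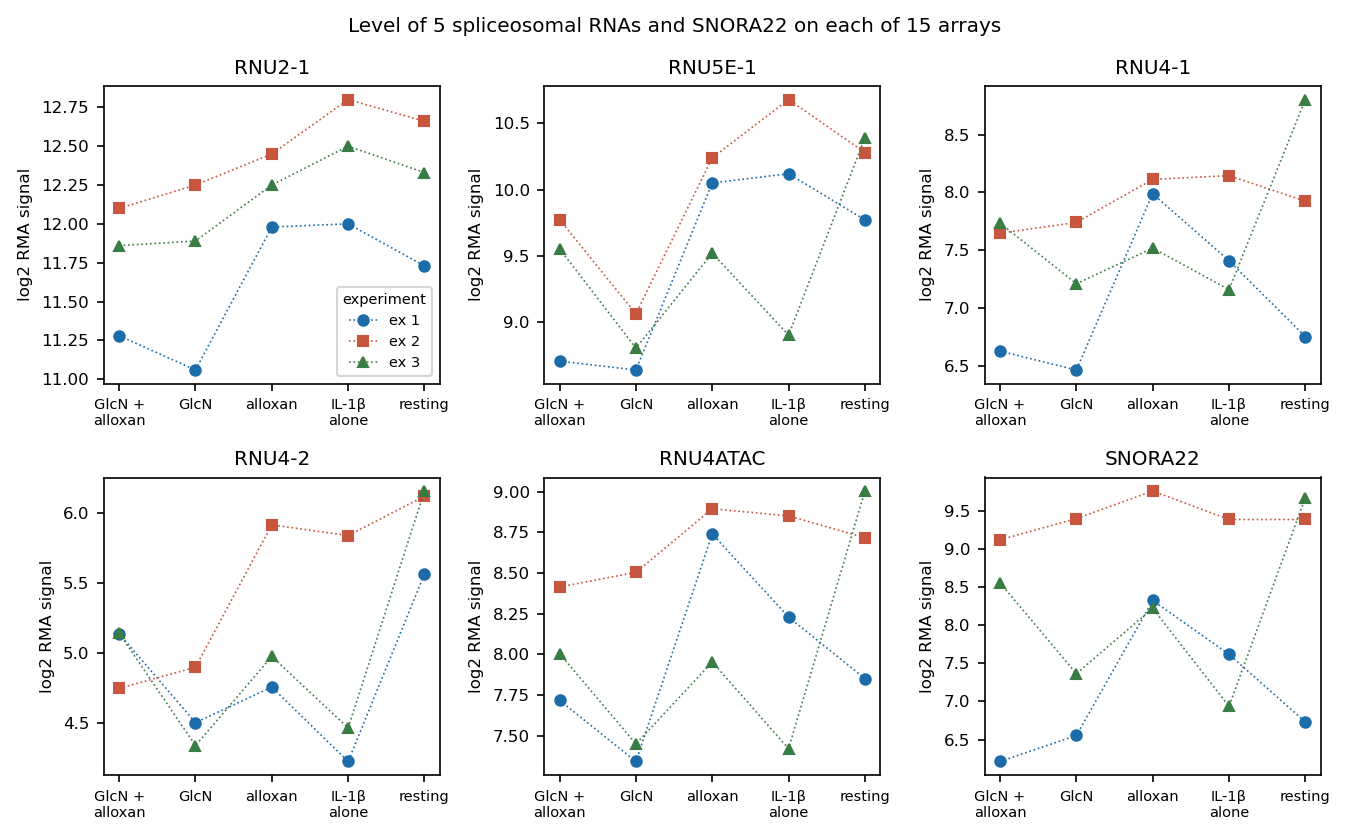
Log2 signal (vertical axis, a scale of its own in each panel that does not start at 0) of RNU2-1, RNU5E-1, RNU4-1, RNU4-2, RNU4ATAC and SNORA22 on the 15 arrays, by condition from GlcN + alloxan to resting, with a symbol for each experiment and dotted lines joining the arrays of 1 experiment. RNU2-1 lies lower in GlcN + alloxan and GlcN cells in all 3 experiments, and the resting array of ex 3 is the highest of its experiment for the other 5 RNAs.

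GlcN + alloxan cells were compared with GlcN cells to see what alloxan adds to GlcN. Most RNAs were higher with alloxan added: the median over the 82 was 0.15, with 67 above 0, against −0.01 over all genes. The medians were 0.10, 0.16 and 0.09 in ex 1, ex 2 and ex 3. The 81 C/D box snoRNAs had a median of 0.38 in the same comparison, with 77 above 0, and limma with the block called 17 of them higher. With the block limma called 6 of the 82 RNAs higher and 0 lower, beside 3.27% of all genes higher and 3.52% lower (0% of all genes without the block). SNORA3B, from RPL27A, had levels of 8.51, 9.34 and 9.51 in GlcN + alloxan cells, against 7.56, 8.49 and 8.74 in GlcN cells. Its differences of 0.95, 0.85 and 0.77 were close to each other, with a mean of 0.86 ± 0.09 or 1.81-fold (limma with the block, adjusted p = 0.00054). SNORA14B, from TOMM20, had levels of 6.59, 7.44 and 7.80 in GlcN + alloxan cells, against 6.06, 6.34 and 6.75 in GlcN cells, a mean difference of 0.89 ± 0.32 (limma, adjusted p = 0.00445). SNORA21, SNORA6, SCARNA4 and SNORA65 rose by 0.40, 0.37, 0.31 and 0.24 (limma with the block, adjusted p of 0.0125, 0.0253, 0.0481 and 0.0482).

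SNORA21 and SNORA6 were called higher in GlcN + alloxan than in GlcN cells and lower in GlcN than in IL-1β alone cells, as was SNORA65 by a call that rarely held with an array left out, but both comparisons use the same GlcN arrays. In GlcN + alloxan cells against IL-1β alone cells they differed by −0.16, −0.05 and −0.03, and none of the 3 was called. RNU2-1 did not follow them: its levels of 11.28, 12.10 and 11.86 in GlcN + alloxan cells stood against 11.06, 12.25 and 11.89 in GlcN cells, differences of 0.22, −0.15 and −0.03. SNORA3B and SNORA14B kept the call whichever array was left out, SNORA21 in 13 and SNORA6 in 12 of the 15 fits, but SNORA65 in only 2 and SCARNA4 in only 1. Without the GlcN array of ex 2, or the GlcN + alloxan array of ex 3, only SNORA3B and SNORA14B were called. With only the GlcN + alloxan and GlcN arrays in the blocked fit 0 RNAs and 0 genes were called.

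**Figure D3:**
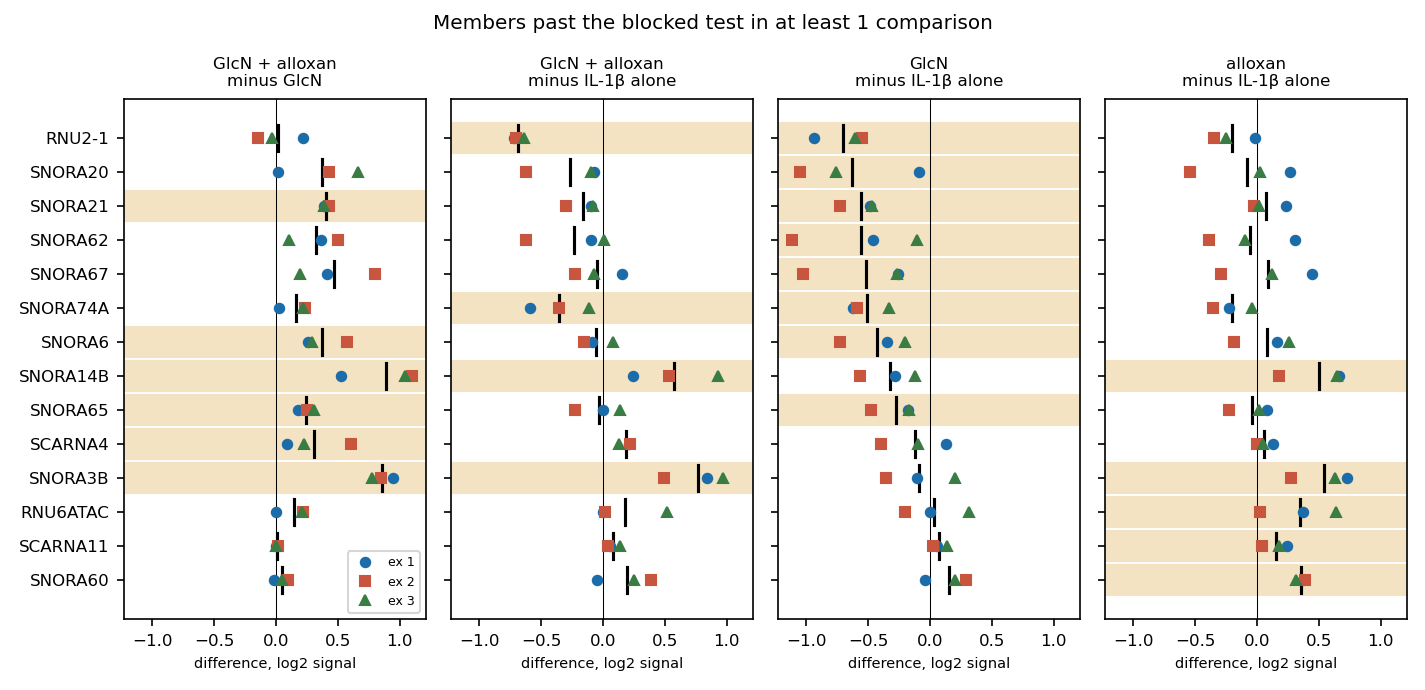
Difference in log2 signal (horizontal axis) of the 14 RNAs called in at least 1 comparison, a symbol per experiment and a black bar at the mean, for GlcN + alloxan minus GlcN, GlcN + alloxan minus IL-1β alone, GlcN minus IL-1β alone and alloxan minus IL-1β alone; tan bands mark the calls of limma with the block. RNU2-1 is low in both comparisons of GlcN-treated with IL-1β alone cells, and SNORA3B and SNORA14B are high in the 3 comparisons that add alloxan.

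GlcN + alloxan cells against IL-1β alone cells gave 2 RNAs called higher and 2 lower by limma with the block, beside 9.06% of all genes higher and 8.47% lower (0.00593% without the block). Both counts, out of 82, are smaller shares than those of all genes. At an unadjusted p under 0.05 limma with the block gave 11% of the 82, beside 28.7% of all genes. SNORA3B rose by 0.84, 0.49 and 0.97 (adjusted p = 0.000237) and SNORA14B by 0.25, 0.54 and 0.93 (adjusted p = 0.0174). RNU2-1 fell, by −0.72, −0.70 and −0.64 (limma, adjusted p = 0.000677), the narrowest spread of any of its comparisons with IL-1β alone cells (SD 0.04), and SNORA74A fell by −0.59, −0.35 and −0.11 (limma, adjusted p = 0.0117). The median over the 82 RNAs was −0.05 against −0.00 over all genes. In all, 5 RNAs (6.1%) were higher and 11 (13.4%) lower in all 3 experiments, beside 18.9% and 17.1% of all genes. Those higher without a call were SCARNA4, SCARNA11 and SNORA27, with mean differences of 0.19, 0.08 and 0.11, and the 3 with the smallest p among those lower without a call were SNORA68, RNU105C and RNU6-501P, a U6 pseudogene, with −0.49, −0.19 and −0.26. SNORA3B and RNU2-1 kept the call whichever of the 15 arrays was left out, SNORA74A in 13 and SNORA14B in 12 of the 15 fits. SNORA74A lost its call without the IL-1β alone array of ex 1 or of ex 2, and SNORA14B without the GlcN + alloxan array of ex 2 or ex 3 or the IL-1β alone array of ex 3. With only these 6 arrays in the blocked fit 1 RNA, RNU2-1, and 276 genes of all tested were called.

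Alloxan cells against IL-1β alone cells gave 5 RNAs called higher and 0 lower by limma with the block, beside 6.13% of all genes higher and 7.21% lower (0% without the block). The 5 of 82 are thus about the share of all genes called higher. At an unadjusted p under 0.05 limma with the block gave 8.54% of the 82, beside 26.2% of all genes. SNORA3B had levels of 8.40, 9.12 and 9.16 in alloxan cells, against 7.67, 8.85 and 8.54 in IL-1β alone cells (mean 0.54 ± 0.24, limma, adjusted p = 0.00361). SNORA60 rose by 0.37, 0.39 and 0.32 (limma, adjusted p = 0.0344), SNORA14B by 0.67, 0.17 and 0.65 (limma, adjusted p = 0.0421) and RNU6ATAC, the minor-spliceosome counterpart of U6, by 0.37, 0.03 and 0.64 (limma, adjusted p = 0.0465). SCARNA11 rose by 0.24, 0.04 and 0.18 (limma, adjusted p = 0.0475), with resting, GlcN + alloxan and GlcN arrays at the same 5.57 in ex 1. Only SNORA3B kept its call whichever array was left out; SNORA60 was called in 10, SNORA14B in 5, RNU6ATAC in 3 and SCARNA11 in 2 of the 15 fits, and with only the alloxan and IL-1β alone arrays in the blocked fit 0 RNAs and 0 genes were called. Of 8 RNAs lower in all 3 experiments none was called, and the 3 with the smallest p, SNORA74A, SNORA70E and RNU2-1, had mean differences of −0.21, −0.22 and −0.21. The 8 were 9.76% of the 82 RNAs, beside 16.1% of all genes, and 15.9% were higher in all 3, beside 20.5%. The median over the 82 RNAs was 0.04, and by experiment 0.10, −0.14 and 0.09, so that ex 2 ran the other way.

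Whether the GlcN difference depends on alloxan was tested by the interaction, the GlcN difference with alloxan minus the difference without it. No RNA was called (0 with limma and the block, and 0 without it), beside 0.0711% of all genes with the block and 0% without it. At an unadjusted p under 0.05 the block gave 9 RNAs above 0 and 2 below 0, 13.4% of the 82, beside 11% of all genes, and 0 RNAs without the block. The smallest adjusted p was 0.325, of SNORA74A (0.37 ± 0.19), followed among those of 1 sign in all 3 experiments by SNORA65 (0.29, adjusted p = 0.328) and SNORA21 (0.33, adjusted p = 0.362). SCARNA11, SNORA60 and RNU11, with the smallest p of the 4 RNAs below 0 in all 3 experiments, had means of −0.15, −0.31 and −0.17 (limma with the block, adjusted p of 0.436, 0.441 and 0.778). The 4 were 4.88% of the 82 RNAs, beside 17.2% of all genes, and 15.9% were above 0 in all 3, beside 13.9%. The median over the 82 RNAs was −0.01, 0.35 and 0.00 in ex 1, ex 2 and ex 3, well above 0 in ex 2 alone. Over the 81 C/D box snoRNAs it was −0.03, 0.93 and 0.19.

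IL-1β alone cells were compared with resting cells to see what the cytokine does by itself. With and without the block 0 of the 82 RNAs and 0% of all genes were called by limma; with the block 5 RNAs were higher and 2 lower at an unadjusted p under 0.05, 8.54% of the 82 beside 5.79% of all genes, and the smallest adjusted p was 0.581. RNU4-2, a U4 gene, had levels of 4.23, 5.84 and 4.47 in IL-1β alone cells, against 5.57, 6.12 and 6.16 in resting cells. It was lower in all 3 experiments, by −1.34, −0.28 and −1.69, and its mean of −1.10 ± 0.73, or 2.15-fold, was the lowest of all 16872 genes tested, yet the adjusted p was 0.592. Its levels in both conditions lay below the median of their arrays in every experiment, so the fold is one of dim signals. RNU4-1, the other U4 gene, differed by 0.66, 0.22 and −1.64, and was thus higher in the first 2 experiments. Of 14 RNAs higher in IL-1β alone cells in all 3 experiments, SNORA21, SNORA74A and SNORA6 had the smallest p, with means of 0.29, 0.23 and 0.22 (limma with the block, adjusted p of 0.581, 0.752 and 0.787), and RNU105B and SCARNA11 were lower in all 3, with −0.09 and −0.08. The 14 were 17.1% of the 82 RNAs, beside 8.88% of all genes, and 3.66% were lower in all 3, beside 11.3%. Over the 15 arrays, after taking each experiment's mean off, the genes whose levels were most like those of RNU4-2 were ELP6, IL18, GNAI3, CLCA2 and NUP37 (Pearson's r of 0.811, 0.803, 0.798, 0.796 and 0.792), a description over arrays that share 3 experiments.

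The arrays of ex 3 stood apart for a number of these RNAs, which bears on each comparison with IL-1β alone cells. SNORA22 was at 6.94 in IL-1β alone cells and 9.67 in resting cells of ex 3, a difference of −2.74, beside 0.89 and 0.00 in ex 1 and ex 2. RNU4ATAC, RNU5E-1, SNORA71D, SNORA71A and SNORA23 differed by −1.58, −1.49, −1.46, −1.49 and −1.55 in ex 3, and by 0.38, 0.35, 0.41, 0.42 and 0.27 in ex 1. In ex 2 SNORA23 was lower too, at 9.79 in IL-1β alone and 10.09 in resting cells, and the others were higher. SNORA38B was low in ex 2 as well as ex 3, at 9.25 and 9.35 in IL-1β alone cells, against 10.75 and 10.96 in resting cells. In ex 3 the resting array alone was highest for 36.6% of the RNAs (14.4% of all genes) and the IL-1β alone array alone lowest for 35.4% (14.3%). Of the 82 RNAs 28.0% had an IL-1β difference below −0.5 in ex 3, beside 1.22% in ex 1 and 1.22% in ex 2. The shares of all genes were 0.729% in ex 3, 0.154% in ex 1 and 0.124% in ex 2. Of the C/D box snoRNAs 27.2% lay below −0.5 in ex 3, so the 82 RNAs shared this with them. The part of the ex 3 arrays in the means was measured by leaving them out: without ex 3 the median IL-1β difference of the 82 RNAs was 0.12, against 0.00 with it.

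The genes that contain these RNAs were measured on the same arrays. Containment is from RefSeq positions without strand. Of 53 tested host genes, 33 were below 0 in GlcN cells against IL-1β alone cells, with a median of −0.03, whereas the 62 RNAs within them had a median of −0.18 with 56 below 0. Limma with the block called 1 host higher and 6 lower. RPL12, a ribosomal protein gene, rose by 0.34 (limma, adjusted p = 0.0196) in the comparison in which its SNORA65 fell by 0.28. TCP1, a chaperonin gene, fell by 0.29 (limma, adjusted p = 0.00412) with SNORA20, and SNORA29 of the same gene differed by −0.09, −1.43 and −0.24 (adjusted p = 0.0822). RPL23, around SNORA21, differed by −0.08 and MATR3, 1 of the genes around SNORA74A, by 0.02, neither called.

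RPL27A contains 2 of the RNAs, of which SNORA3B alone was called. In alloxan cells against IL-1β alone cells RPL27A rose by 0.48 (limma with the block, adjusted p = 0.00777) and SNORA3B by 0.54, while SNORA3A differed by 0.38, −0.32 and 0.42 (adjusted p = 0.711). In GlcN + alloxan cells against GlcN cells SNORA3B rose by 0.86, SNORA3A differed by 0.34 (adjusted p = 0.352) and RPL27A by 0.34 (adjusted p = 0.0587). TOMM20 differed by 0.19 in that comparison (adjusted p = 0.113), where its SNORA14B rose by 0.89. Neither the difference between an RNA and its host nor that between RNAs of 1 host was tested.

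**Figure D4:**
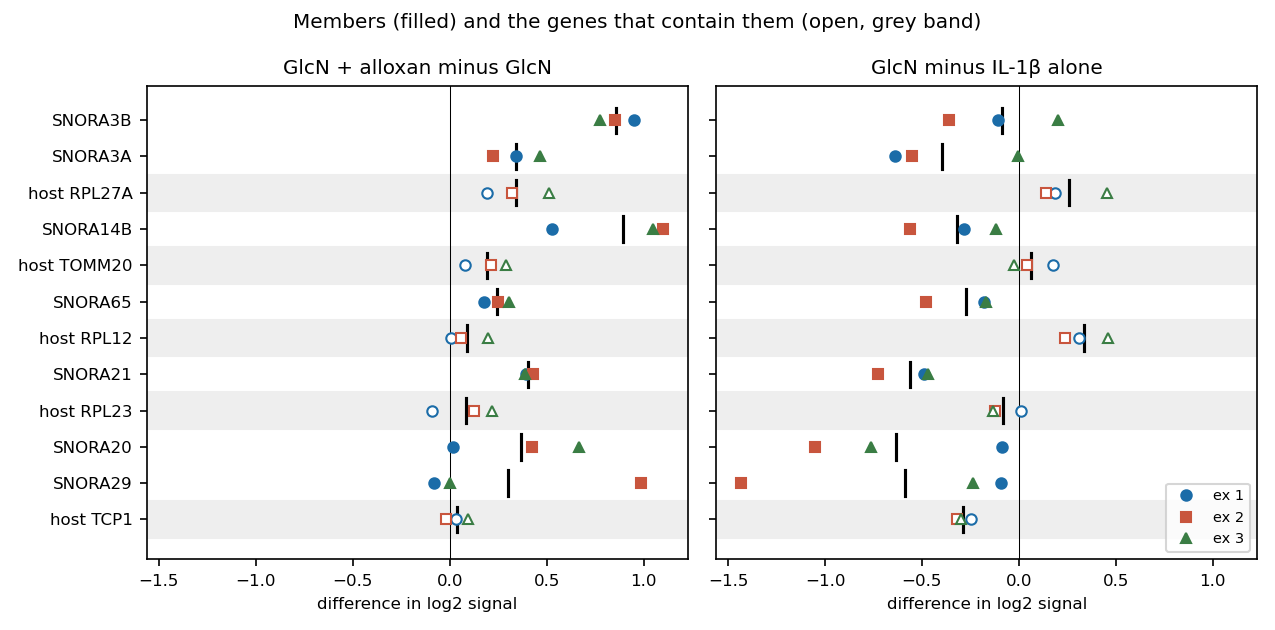
Difference in log2 signal (horizontal axis) of 7 RNAs (filled symbols) and the 5 genes that contain them (open symbols on grey), a symbol per experiment and a black bar at the mean, for GlcN + alloxan minus GlcN and GlcN minus IL-1β alone. SNORA3B and SNORA14B lie right of RPL27A and TOMM20 in GlcN + alloxan minus GlcN, and SNORA65 and SNORA21 lie left of RPL12 and RPL23 in GlcN minus IL-1β alone.

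The proteins that carry, make and mature these RNAs were followed through the same comparisons. Of 9 H/ACA proteins and their Cajal body partners, limma with the block called 0 higher and 0 lower in GlcN cells against IL-1β alone cells, with a median of −0.07. SHQ1, an assembly factor of H/ACA particles, DKC1, the pseudouridine synthase dyskerin, and TERT, the telomerase enzyme, had the smallest p and differed by −0.23, −0.28 and 0.07 (adjusted p of 0.0629, 0.117 and 0.458). COIL, the Cajal body protein coilin, rose by 0.35 in alloxan cells against IL-1β alone cells (limma, adjusted p = 0.0029) and by 0.34 in GlcN + alloxan cells against GlcN cells (limma, adjusted p = 0.00636). With WRAP53, which brings scaRNAs to Cajal bodies and rose by 0.22 (limma, adjusted p = 0.00613), it made up the 2 of the 9 called higher with alloxan alone. Of 32 snRNP proteins 1 was called higher and 3 lower in GlcN cells, 4 higher and 0 lower in alloxan cells against IL-1β alone cells, 2 higher and 1 lower in GlcN + alloxan cells against IL-1β alone cells, and 4 higher and 0 lower in GlcN + alloxan cells against GlcN cells. In GlcN cells PRPF3 and PRPF4, which bind the U4/U6 pair, fell by 0.37 and 0.28 (limma, adjusted p of 0.000933 and 0.0117) and SNRNP25, of the minor U11/U12 particle, by 0.34 (limma, adjusted p = 0.00157), while SNRNP48 of the same particle rose by 0.20 (limma, adjusted p = 0.0151).

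Of 36 tested genes for transcription and processing of U snRNAs 1 was called higher and 3 lower in GlcN cells, 4 higher and 7 lower in alloxan cells against IL-1β alone cells, 4 higher and 6 lower in GlcN + alloxan cells against IL-1β alone cells, and 2 higher and 4 lower in GlcN + alloxan cells against GlcN cells. In GlcN cells ZNF143, an activator of U snRNA promoters, fell by 0.67, 0.66 and 1.15 (limma with the block, adjusted p = 0.000409), TOE1, which trims the ends of U snRNAs, fell by 0.33 (limma, adjusted p = 0.0103), INTS4, of the Integrator complex, fell by 0.27 (limma, adjusted p = 0.0151), and SNAPC5, a subunit of the complex that recognises those promoters, rose by 0.26 (limma, adjusted p = 0.0128). For these lists the shares of all genes given above for each comparison are the background. No gene of the 3 lists was called in IL-1β alone cells against resting cells or in the interaction. Of other such RNAs outside the chosen names, TERC, RMRP and RPPH1 differed by −0.08, 0.16 and 0.03 (limma, adjusted p of 0.810, 0.835 and 0.945).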

How the data were processed

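Total RNA of MH7A cells, purified on RNeasy columns, was labelled and hybridised to 15 Affymetrix Human Gene 1.0 ST arrays, 3 in each of 5 groups. Only 11 of the 92 RNAs are longer than 200 bases, and how well the columns kept the shorter ones was not measured. Whether probes for an RNA within a host gene also read the unspliced host transcript was not tested. A level is thus a signal and not a measured amount of the mature RNA. The authors deposited log2 signals, made with RMA in Affymetrix Expression Console per the submitters' processing notes; no version is stated for either. Array signals carry no read depth, and 3 arrays a group set the precision. Of 33297 probe clusters 19460 had 1 gene symbol, 1754 several and 12083 none listed, and 23 clusters with several symbols that name one of these RNAs first were left out. Genes were tested if at or above the 20th percentile of the array on at least 3 arrays. Groups and experiment numbers came from the sample labels.

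limma 3.58.1 (R 4.3.3) was fitted with 5 group means over all 15 arrays, without and with the experiment number as a block, and Benjamini-Hochberg adjustment ran over 16872 genes. Both fits were tested on simulated data. After each group's mean was taken off, arrays with the same number deviated together (correlations of 0.621 to 0.848 in 30 pairs), so the numbers pair the arrays. Arrays with different numbers had correlations of −0.656 to −0.0678 in 60 pairs. Taking off a mean over 3 arrays by itself pushes these below 0, so they add no evidence. The SE of a difference was 0.596 for every gene without the block and had a median of 0.0647 with it. Alternatives were other filters, cluster means, quantile normalization, equal medians, an intensity trend, the methods' t-test, single arrays left out and whole experiments left out. Named were RNU4-2, RNU2-1, SNORA62 and SNORA22, up to 6 RNAs called per direction and comparison, up to 3 with the smallest blocked p and 1 sign in 3 experiments where fewer than 3 were called, all RNU genes, the 3 SCARNA and 5 SNORA genes with the highest level, up to 3 genes of each related list, host genes, and the 5 genes most like RNU4-2. Further called genes of those lists, such as COIL and WRAP53, and the RNAs given for ex 3 were named after their values were seen. The RNAs and all lists were chosen with earlier results of these data known. Nothing says whether the 3 experiments began from separate thawed cultures, so the spread may be technical. The p-values of the blocked fit measure how much differences between conditions vary from 1 experiment to another, estimated over all 5 conditions. Figures were drawn with Python 3.11.15 and matplotlib 3.10.9.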

Additional observations from a re-analysis of the deposited data

Results flagged for a closer look

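In 2 of the 82 RNAs the alloxan difference ran one way without GlcN and the other way with it in all 3 experiments. How many of all genes do the same was not counted, so the 2 cannot be called a trait of these RNAs. SNORA75, within the nucleolin gene NCL, was higher by 0.09, 0.88 and 0.13 in GlcN + alloxan cells against GlcN cells, and differed by −0.09, −0.49 and −0.10 in alloxan cells against IL-1β alone cells. The difference between the 2 (the interaction) was 0.589 ± 0.246 (SE), with an unadjusted p of 0.0354 and an adjusted p of 0.421 in limma with the experiment block. SNORA74A differed by 0.03, 0.23 and 0.22 in GlcN + alloxan cells against GlcN cells and by −0.22, −0.35 and −0.04 in alloxan cells against IL-1β alone cells, an interaction of 0.365 ± 0.116 (SE) with an adjusted p of 0.325 in limma with the block. Neither passed the test of the difference. Groups of 3 arrays are too small for a search for single outlying arrays.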

How the results depend on the processing

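The experiment numbers pair the arrays, and the call counts turned on that pairing. Without the replicate block 0 RNAs were called; with it limma called 8 in GlcN against IL-1β alone, 5 in alloxan against IL-1β alone, 4 in GlcN + alloxan against IL-1β alone and 6 in GlcN + alloxan against GlcN. In that order the block over only the groups compared gave 0, 0, 1 (RNU2-1) and 0, with fewer arrays to estimate the spread. Without the block, quantile normalization called 1 RNA, SNORA3B, in GlcN + alloxan against IL-1β alone and 1, again SNORA3B, in GlcN + alloxan against GlcN, and equal medians called 1 (SNORA3B) in the first of these. With single arrays left out of the blocked fit, the calls numbered 4 to 17 for GlcN, 2 to 4 for alloxan, 3 to 6 for GlcN + alloxan against IL-1β alone and 2 to 8 for GlcN + alloxan against GlcN. The methods' t-test with its fold threshold, run here unpaired on the deposited values, called 0 of these RNAs (47 genes of all for GlcN); it is not a repeat of the study's own processing in its software, whose calls it does not stand for. It was not run for the interaction.

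The median difference in GlcN against IL-1β alone was below 0 under every alternative run, at −0.3415 to −0.07715 with 1 experiment left out (nearest 0 without ex 2). With 1 experiment left out it spanned 0 in alloxan against IL-1β alone (−0.02688 to 0.1276) and in GlcN + alloxan against IL-1β alone (−0.1301 to 0.01229). It was 0.1983 in GlcN + alloxan against GlcN with a filter at the 50th percentile, and −0.02259 to 0.1224 in IL-1β alone against resting with 1 experiment left out. SNORA22 in GlcN against IL-1β alone ranged over −0.82 to 0.2709 with 1 array left out and −0.5266 to 0.2199 with 1 experiment left out, and SNORA27 in GlcN + alloxan against IL-1β alone over −0.05834 to 0.2257 with 1 array left out; the cause was not tested.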

Other observations

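SNORA22 had the levels most like those of RNU4-1 and RNU4ATAC over the 15 arrays after taking each experiment's mean off (Pearson's r of 0.946 and 0.939), although these RNAs come from separate genes. The genes most like RNU2-1 on the same measure were CCN1, MUC1 and MEST (0.937, 0.932 and 0.928), and those most like SNORA3B were BRD2, HINFP and OSR2 (0.958, 0.945 and 0.943). These are descriptions over arrays that share 3 experiments. Of the 276 differences between GlcN and IL-1β alone cells (92 RNAs in 3 experiments), 39 were exactly 0. In ex 1, ex 2 and ex 3 these were 13, 5 and 12 of the 82 tested RNAs, beside 3542, 1787 and 2558 of 16872 genes. Such ties are thus found over all genes and are not particular to these RNAs.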
